A study of Homo sapiens with 8 samples.

Results

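Peaks whose nearest transcription start site (TSS) belongs to a noncoding RNA gene were taken from 6 ChIP-seq peak lists of DLD-1 cells, an established human colon cancer line with high endogenous Wnt signaling. Each clonal DLD-1 line carried a doxycycline-inducible, FLAG-tagged dominant negative TCF1E that cannot recruit β-catenin, with either an intact C-clamp (dnTCF1EWT) or a C-clamp substituted so that it no longer binds DNA (dnTCF1Emut). Anti-FLAG ChIP was done without doxycycline (0 h) and after 2 h and 9 h in 1 ug/mL doxycycline, and the duplicates of each condition had been pooled into 1 list. A peak was a member if the gene type of its nearest gene was snoRNA, snRNA or rRNA, or if the gene symbol began with MIR or LINC and a digit. This gave 1481 of the 23433 listed peaks, and 19267 peaks nearest to protein-coding genes served for comparison. The members were nearest to 686 genes. RefSeq held 681 of these, 480 as miRNA, 120 as lncRNA, 46 as snoRNA, 15 as snRNA, 15 as pseudogenes (1 of them transcribed) and 5 as protein-coding. The lists hold no expression values, so the identity of the cells was not checked against markers.

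TCF proteins bind DNA through an HMG box, which recognizes the Wnt response element (WRE), counted in the lists as CTTTG followed by A or T at each of the next positions and then C or G. The C-clamp of the E isoforms is an additional DNA binding domain that recognizes GC-rich Helper sites, counted as ACCGCC or GCCGCC, or in the short form ACCG or GCCG, so that every Helper site also holds a short one. MicroRNAs are cut from hairpins in longer transcripts and pair with messenger RNAs through a seed at bases 2 to 8. Many microRNA hairpins lie inside introns of protein-coding hosts, so the TSS assigned to a microRNA gene in these lists is the start of its hairpin and not the promoter of its transcript. LINC genes encode long intergenic noncoding RNAs, snoRNAs guide modification of ribosomal and spliceosomal RNAs, and U5 and U6 snRNAs are parts of the spliceosome.

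Of the 485 microRNA genes nearest to a member, 427 had a mature sequence in RefSeq (GRCh38.p14), with 593 mature sequences and 539 distinct seeds. The microRNAs nearest to the regions that the results below turn on are shown 5′ to 3′ with the seed in capitals. The first 6 sequences belong to microRNAs whose nearby regions led the dnTCF1EWT 2 h list or were listed for both proteins at 2 h.
hsa-miR-1257: aGUGAAUGauggguucugacc
hsa-miR-4714-5p: aACUCUGAccccuuagguugau
hsa-miR-4714-3p: cCAACCUAgguggucagaguug
hsa-miR-4686: uAUCUGCUgggcuuucugguguu
hsa-miR-1279: uCAUAUUGcuucuuucu
hsa-miR-1203: cCCGGAGCcaggaugcagcuc
hsa-miR-9-5p, of the mutant 2 h region near MIR9-2: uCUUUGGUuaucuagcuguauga
hsa-miR-302f, of the repeat regions of the dnTCF1Emut line: uAAUUGCUuccauguuu
hsa-miR-10a-5p, with peaks just upstream of the hairpin: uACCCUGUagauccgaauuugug
hsa-miR-100-5p, with a peak just downstream of the hairpin start: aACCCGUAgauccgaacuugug
hsa-miR-128-3p, with a dnTCF1Emut peak close to the hairpin: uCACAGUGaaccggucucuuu
hsa-miR-17-5p, from the transcript of MIR17HG: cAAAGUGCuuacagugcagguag
These 12 seeds differ from each other. Among all members, the seed shared by the most genes was AAAGUAA, found in 6 genes of the MIR548 family with 16 peaks, followed by AAAGCUG in 5 MIR320 genes with 6 peaks. MIR548 is a large family of hairpins in repetitive sequence, and 33 of its genes were nearest to 78 members.

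Noncoding RNA genes, as the membership rule defines them, took between 5.99% and 8.19% of each list. Noncoding genes of the type miscRNA with other symbols were not members. With them included the shares ran from 12.8% to 17.2%. The members were 122 of 1907 peaks (6.397%, 95% Wilson interval 5.38 to 7.59) for dnTCF1EWT at 0 h, 367 of 5585 (6.57%, 5.95 to 7.25) at 2 h and 779 of 12996 (5.99%, 5.599 to 6.42) at 9 h. For dnTCF1Emut they were 48 of 708 (6.78%, 5.15 to 8.87) at 0 h, 136 of 1883 (7.22%, 6.14 to 8.48) at 2 h and 29 of 354 (8.19%, 5.76 to 11.5) at 9 h. Of the 15 pairs of lists, the Newcombe interval of the difference in share excluded 0 in 1, dnTCF1Emut at 2 h minus dnTCF1EWT at 9 h, at 1.23 percentage points (0.0652 to 2.55), without adjustment for the number of pairs. In the other pairs it included 0. Each condition is 1 pooled list with no spread between replicates, and neighbouring peaks are not independent, so all intervals cover counting error only. The 2 proteins were expressed in separate clones with separate libraries, and the protein, the clone and the library cannot be told apart. MicroRNA genes accounted for 1019 of the members, LINC genes for 299, snRNA genes for 66, snoRNA genes for 64, the small noncoding SNAR genes for 19, microRNA host genes for 13 and an rRNA gene for 1.

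The peak score is the MACS score, which grows as the p-value of the peak falls, and it is not scaled between libraries. Within a list, the members scored like peaks nearest to protein-coding genes. The median score was 60.3 (95% interval of the median 58.2 to 61.3) for members and 58.8 (58.3 to 59.3) for protein-coding peaks in the dnTCF1EWT 2 h list, and 57.4 (56.6 to 57.8) and 56.7 (56.6 to 57.0) in the dnTCF1EWT 9 h list. In the dnTCF1Emut 2 h list the medians were 80.6 (71.7 to 84.8) and 82.4 (79.5 to 85.3). In the dnTCF1EWT lists most members were thus close to the lowest listed scores of about 50. In the dnTCF1Emut lists 64.6%, 62.5% and 51.7% of members scored above 67 at 0, 2 and 9 h. The shares of protein-coding peaks there were 65.8%, 65.6% and 50.2%. A small number of members reached scores above 200, as the plot of scores by list shows.

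**Figure D1:**
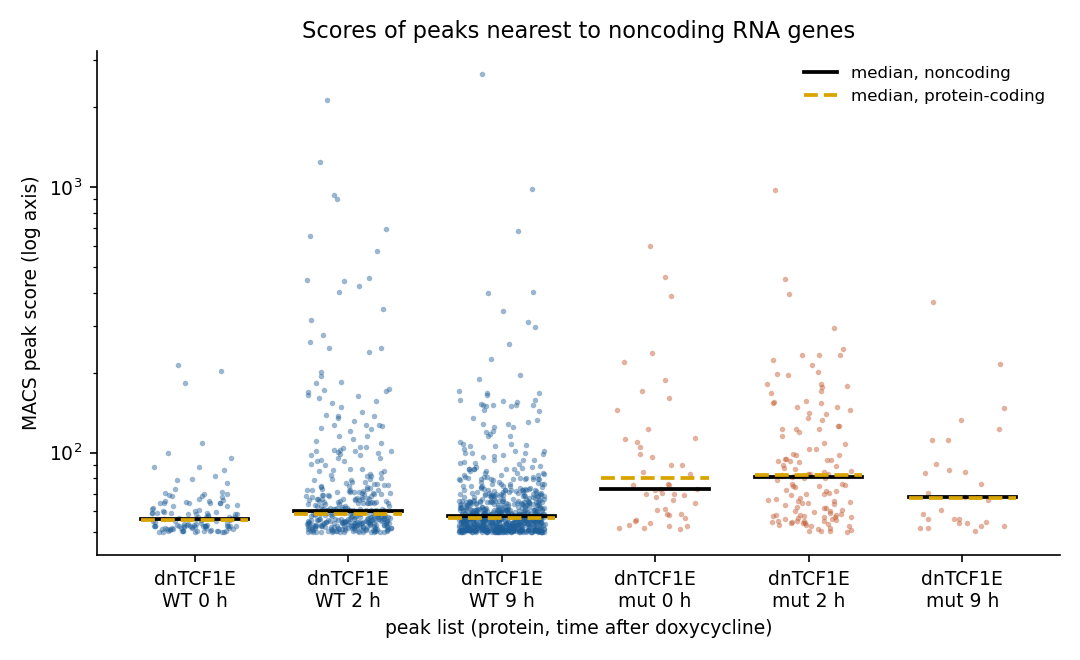
MACS score (log axis) of each of the 1481 peaks nearest to noncoding RNA genes, in the 6 peak lists, with the median of the noncoding peaks (solid line) and of the protein-coding peaks (dashed line) of the same list. The medians of both kinds lie close together, except for dnTCF1Emut at 0 h (72.8 and 80.3), and the highest points are 2134 at 2 h and 2672 at 9 h for dnTCF1EWT and 976 at 2 h for dnTCF1Emut.

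The strongest noncoding region was near MIR1257. The peak lay on chromosome 20 (hg19, 60560965 to 60561643 in the dnTCF1EWT 2 h list), in the last annotated intron of TAF4, which encodes a subunit of the general transcription factor TFIID, and 32.6 kb upstream of the MIR1257 hairpin. It scored 930 (rank 22) for dnTCF1EWT at 2 h and 2672 (rank 1) at 9 h, and 976 (rank 3) for dnTCF1Emut at 2 h and 368 (rank 2) at 9 h. It had no overlapping peak in either untreated list. In each of the 4 induced lists the peak held 10 WREs, no short Helper site and no Helper site. It was thus near the top of all 4 induced lists. For dnTCF1EWT it stood in the top 0.394% of the list at 2 h and 0.00769% at 9 h. For dnTCF1Emut it stood in the top 0.159% at 2 h and 0.565% at 9 h.

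Other leading regions were listed for dnTCF1EWT and not for dnTCF1Emut. LINC00565 had the highest score of any member at 2 h, 2134 (rank 4), and scored 986 (rank 5) at 9 h. Its peak (chromosome 13, 114616422 to 114617450 at 2 h) lay in a CpG island within an intron of a noncoding transcript, 15.03 kb downstream of the LINC00565 TSS, with 52.7% GC, 12 short Helper sites and no WRE. The peak near MIR4714 (chromosome 15, 99319751 to 99320349) lay in intron 2 of IGF1R, the insulin-like growth factor receptor gene, and scored 1239 (rank 11) at 2 h and 403 (rank 43) at 9 h. It held 2 Helper sites and no WRE in both lists. The peak near MIR3143 (chromosome 6, 27145459 to 27146026) was in an intergenic CpG island with 8 short Helper sites and 1 WRE, and scored 899 at 2 h and 256 at 9 h. These 3 regions were 568 to 1029 bp long at 2 h, against a median length of 189 bp for the members of that list.

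The motifs of the leading dnTCF1EWT regions were not of a single kind. The region near MIR4287, in intron 7 of the ferritin receptor gene SCARA5 (chromosome 8, 27754719 to 27755356), scored 692 at 2 h and 171 at 9 h and held 3 WREs and 1 Helper site at 2 h. MIR4436A was the nearest gene, at 1338 kb, to a peak of 1374 bp on chromosome 2 (90449119 to 90450492) that scored 682 at 9 h (rank 18) and 100 at 2 h. This peak lay in a CpG island of 70.7% GC and held 99 short Helper sites, 38 Helper sites and no WRE at 9 h. The score was higher at 9 h than at 2 h, as for the regions near MIR1257, RNU6-48 and MIR4711. The region near MIR205HG, the host gene of the epithelial microRNA miR-205, scored 446 at 2 h and 99.5 at 9 h and held 1 WRE.

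**Figure D2:**
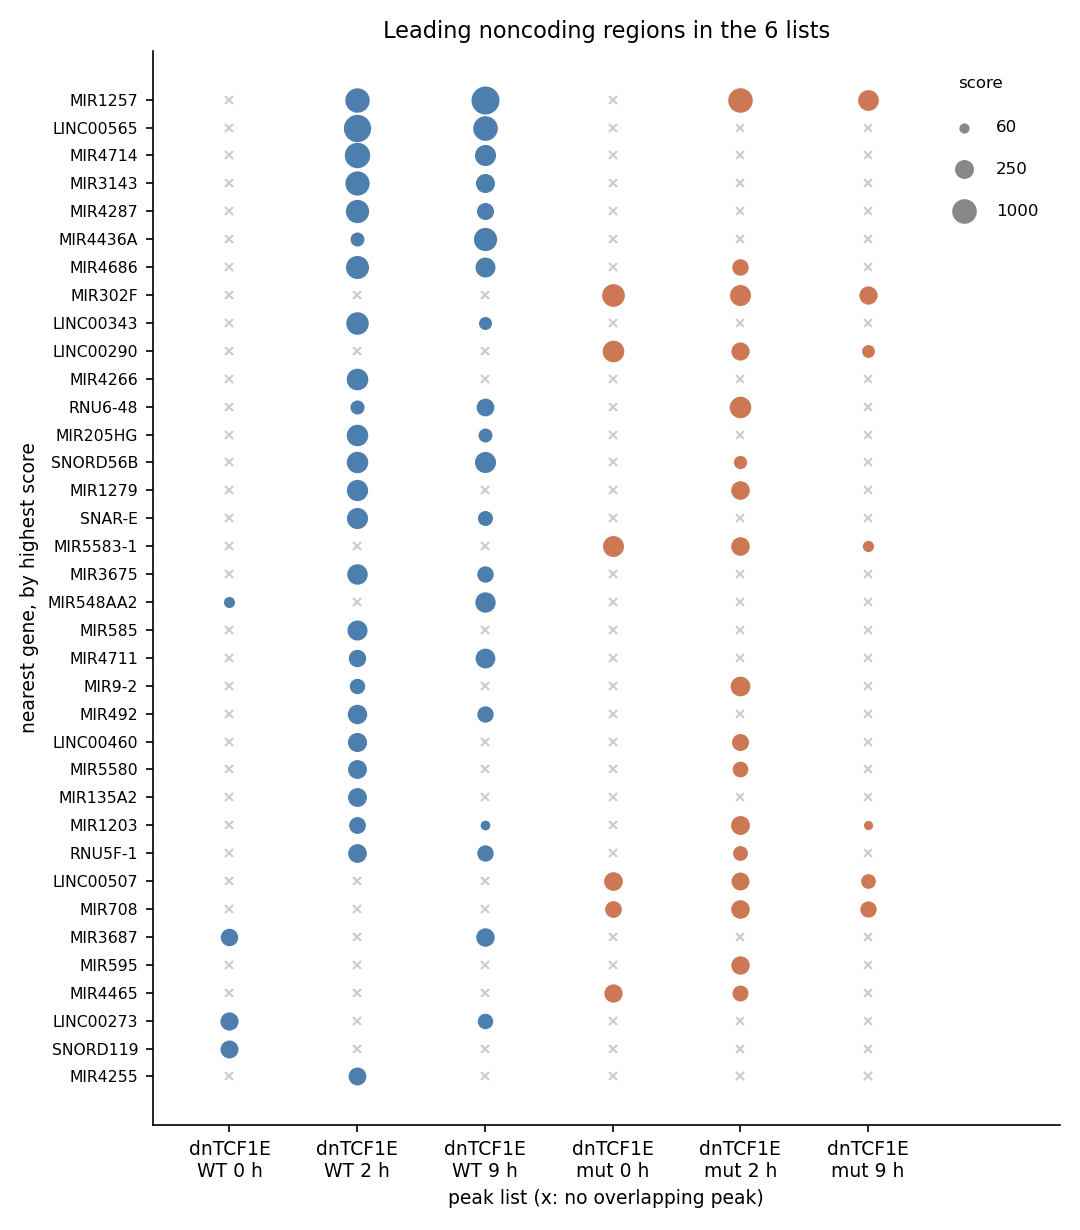
Peak scores in the 6 lists for the 36 noncoding RNA genes whose best region scored above 200, 1 region per gene. Dot area grows with the logarithm of the score and a cross marks a list without an overlapping peak. Of the 36 regions, 15 appear in the induced dnTCF1EWT lists alone, 10 for both proteins, and 6 in the dnTCF1Emut lists including the untreated one.

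Among the 36 genes whose best region scored above 200, 15 regions were listed for dnTCF1EWT at 2 h, 9 h or both times and in no other list, and 8 of these held a WRE and 7 a Helper site in at least 1 of their peaks. A further 10 were listed for both proteins and in no untreated list, of which 4 held a WRE and 2 a Helper site. The remaining regions were 4 in dnTCF1EWT lists that include the untreated one, 6 in dnTCF1Emut lists that include the untreated one, and 1 in the dnTCF1Emut 2 h list alone. Of the 17 regions listed for dnTCF1EWT at both induced times, 13 had the higher score at 2 h, and the regions were chosen by their best score in any list. For comparison with peaks of other genes, 13 of the 20 members above 200 in the dnTCF1EWT 2 h list overlapped no dnTCF1Emut peak and no peak of untreated cells, and 7 of these 13 (53.8%) held a WRE and 5 (38.5%) a Helper site. Of all 410 peaks above 200 in that list, 201 overlapped none of those lists, and 43.8% of the 201 held a WRE and 36.3% a Helper site. A 9 h peak overlapped 13 of the 20 members, and 12 of them (92.3%) scored higher at 2 h, where 93.5% of 278 such peaks of all genes did.

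Of the 28 members of the dnTCF1EWT 2 h list overlapped by a dnTCF1Emut 2 h peak, 19 (67.9%) scored higher for dnTCF1EWT. Among all 527 such peaks of the list, 63.6% did. Several regions listed for both proteins at 2 h stood higher in the dnTCF1Emut list. Since scores are not scaled between libraries and the lists differ in length (5585 and 1883 peaks at 2 h), the rank is also given as a percent of the list, counted from the top. RNU6-48, given the type snRNA in the lists, was the nearest gene, at 137 kb, to a region on chromosome 6 (12529082 to 12529631 in the dnTCF1Emut 2 h list). That region scored 449 (rank 24, top 1.27%) with dnTCF1Emut at 2 h. With dnTCF1EWT it scored 102 (rank 903, top 16.2%) at 2 h and 196 (rank 150, top 1.15%) at 9 h. The region near MIR9-2, one of the genes for the neuronal microRNA miR-9, scored 294 (rank 64, top 3.40%) with dnTCF1Emut and 126 (rank 712, top 12.7%) with dnTCF1EWT at 2 h, 168 kb from the hairpin and in an LTR element. The region near MIR1203, in intron 4 of the adaptor gene SKAP1, scored 246 (rank 103, top 5.47%) and 163 (rank 525, top 9.40%) with dnTCF1Emut and dnTCF1EWT at 2 h, and 54.1 and 56.8 at 9 h. None of these 3 regions held a WRE in any list. In the other direction, the region near MIR4686 (chromosome 11, 2224310 to 2224889), with 2 WREs and 3 Helper sites at 2 h in the dnTCF1EWT list, scored 653 and 310 with dnTCF1EWT at 2 h and 9 h and 154 with dnTCF1Emut at 2 h, in the top 0.931%, 0.5002% and 16.8% of the lists. SNORD56B, a C/D box snoRNA gene, scored 442, 399 and 89.6 in the same 3 lists, in the top 2.08%, 0.346% and 42.3%. MIR1279 scored 423 (rank 128, top 2.29%) with dnTCF1EWT and 234 (rank 118, top 6.27%) with dnTCF1Emut at 2 h, so that its rank and its percent of the list order the proteins differently. No test was possible with 1 list per condition, and neither rank nor percent removes the difference in list length.

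In all, the members merged into 1329 regions, of which 1208 were in 1 list, 96 in 2, 22 in 3 and 3 in 4 lists. Listed for both proteins were 34 regions, 32 of them in no untreated list. Of these 32, 22 held a WRE in at least 1 of their peaks, 6 a Helper site and 9 neither. By the peak with the best score, 21 held a WRE and 10 neither, 21 were intergenic, and 8 lay in an intron of a coding transcript. Among the members of the dnTCF1EWT 2 h list, 28 (7.63%) overlapped a dnTCF1Emut 2 h peak, against 9.44% of all peaks of the list and 9.63% of the protein-coding ones. A WRE was present in 18 of these 28 (64.3%) and in 48 of the 339 others (14.2%). For protein-coding peaks the corresponding shares were 56.8% of 438 and 11.3% of 4110. Helper sites were in 3 of the 28 shared members (10.7%) and in 26 of the other 339 (7.67%), and for protein-coding peaks in 9.13% of 438 and 6.37% of 4110. The shared members had a higher median score (127 against 58.7) and a lower median GC content (41.0% against 49.3%) than the others, and the part of score and GC content in the WRE shares was not tested. Seen from the dnTCF1Emut 2 h list, 28 members (20.6%) overlapped a dnTCF1EWT 2 h peak, against 27.9% of all peaks and 29.3% of the protein-coding ones, a difference from the latter of -8.74 percentage points (95% Newcombe interval -15.1 to -0.85).

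A distinct set of members of the dnTCF1Emut line was made of AT-rich repeats. A GC content below 15% was found in 40 of the 48 members at 0 h (82.9% of all peaks of that list), in 35 of 136 at 2 h (20.9%) and in 10 of 29 at 9 h (35.0%), and in none of the members of the 3 dnTCF1EWT lists, where it was found in 0%, 0.0716% and 0% of all peaks. The shares of the members were thus near those of their lists. Simple repeats were annotated for 33, 31 and 10 of these members, and (TA)n repeats for 28, 24 and 7. They held no Helper site, and 1 of them, at 2 h, held a WRE. Of the 35 at 2 h, 21 (60%) were overlapped by a peak of untreated cells of the same line, against 75.8% of all 393 such peaks of the list. Of the 40 at 0 h, 25 (62.5%) were overlapped by a dnTCF1Emut peak at 2 h and 7 (17.5%) at 9 h, against 50.4% and 17.2% of all 587 such peaks, and none by a peak of any dnTCF1EWT list.

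MIR302F led this set. The region on chromosome 18 (27091462 to 27092243 at 0 h), a (TA)n repeat of 1.66% GC 787 kb upstream of the hairpin, scored 599 (rank 1) at 0 h, 394 (rank 32) at 2 h and 216 (rank 10) at 9 h. A (TA)n region 769 kb from LINC00290 (chromosome 4, 181311292 to 181312224) scored 458, 213 and 84.4, and one 484 kb from MIR5583-1 (chromosome 18, 36772248 to 36773139) scored 389, 233 and 68.2 at the same times. In each of these 3 regions the score was highest at 0 h and lowest at 9 h. Those near MIR302F and LINC00290 were named for leading the 0 h list, and scores are not scaled between libraries. Of the 23 dnTCF1Emut 2 h members of any GC content overlapped by a 0 h peak, 9 (39.1%) scored higher at 2 h. Among all 326 such peaks of the list, 25.8% did. An AT-rich region within DCC, 794 kb from SNORA37, an H/ACA snoRNA gene, scored 188, 126 and 84.1, and one 17.01 kb from MIR181B1 scored 112 at 0 h and 82.7 at 2 h.

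**Figure D3:**
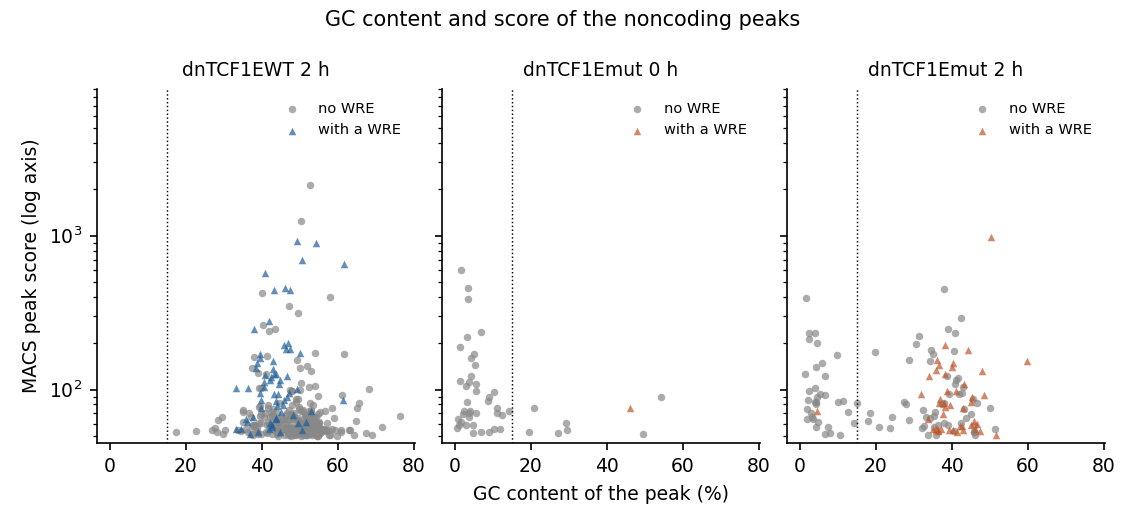
GC content (%) and MACS score (log axis) of the noncoding peaks in 3 lists, with peaks that hold a WRE as triangles and the others as circles. Left of the dotted line at 15% GC lie none of the 367 dnTCF1EWT 2 h peaks, 40 of the 48 dnTCF1Emut 0 h peaks and 35 of the 136 dnTCF1Emut 2 h peaks.

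The motif shares of the members were close to those of protein-coding peaks. A WRE was present in 66 of 367 members (17.98%, 95% Wilson interval 14.4 to 22.2) of the dnTCF1EWT 2 h list, where 16.3% of all peaks and 15.7% of protein-coding peaks held one. The difference between members and protein-coding peaks was 2.28 percentage points (95% Newcombe interval -1.47 to 6.66). At 9 h it was 63 of 779 (8.09%, 6.37 to 10.2) against 6.56% of all and 6.04% of protein-coding peaks, a difference of 2.04 points (0.27 to 4.21). In the dnTCF1Emut 2 h list it was 45 of 136 (33.1%, 25.7 to 41.4) against 36.0% and 36.7%, a difference of -3.62 points (-11.4 to 4.998). In the other lists a WRE was in 4 of 122 members (3.28%) of untreated dnTCF1EWT cells, where 5.66% of all peaks held one, in 1 of 48 of untreated dnTCF1Emut cells (2.12% of all) and in 7 of 29 (24.1%) for dnTCF1Emut at 9 h (30.5% of all). The interval of the difference excluded 0 in the dnTCF1EWT 9 h list alone among the 6 lists. At 9 h it included 0 with microRNA genes only (1.28 points, -0.67 to 3.81), with all other peaks as the comparison (1.63 points, -0.14 to 3.80), among intergenic peaks and among the top 1000 peaks, and at 2 h it excluded 0 among peaks of 40 to 50% GC (6.97 points, 0.35 to 14.6). Without the peaks below 15% GC, 44 of 101 members (43.6%) of the dnTCF1Emut 2 h list held a WRE. The difference from protein-coding peaks left by the same filter was -2.98 points (-12.7 to 7.15).

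Helper sites were also about as frequent in members as in their lists. They were in 29 members (7.90%) of the dnTCF1EWT 2 h list, where 7.23% of all peaks held one, in 41 (5.26%) at 9 h, where 4.83% did, and in 9 (6.62%) of the dnTCF1Emut 2 h list, where 4.35% did. The differences from protein-coding peaks were 1.26 (-1.20 to 4.55), 0.76 (-0.66 to 2.60) and 2.19 points (-1.12 to 7.75), and in no list did the interval exclude 0. In untreated cells 6 of 122 dnTCF1EWT members (4.92%, where 3.83% of all peaks held one) and 0 of 48 dnTCF1Emut members (0.424% of all; Wilson upper limit 7.41%) held a Helper site, and 0 of 29 (4.24% of all; upper limit 11.7%) did for dnTCF1Emut at 9 h. Short Helper sites were in 198 (54.0%), 426 (54.7%) and 53 (39.0%) members of the 3 lists, where 54.1%, 55.4% and 38.9% of all peaks held one, and in 47, 4 and 9 members of the dnTCF1EWT 0 h, dnTCF1Emut 0 h and dnTCF1Emut 9 h lists, where 45.9%, 9.18% and 30.8% did.

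Peaks with a WRE and a Helper site were few. They were 2, 5 and 11 members of the dnTCF1EWT lists at 0, 2 and 9 h (1.64%, 1.36% and 1.41%), where 0.524%, 1.97% and 0.823% of all peaks held both motifs, 6 members (4.41%) for dnTCF1Emut at 2 h, where 2.39% did, and 0 of 48 and 0 of 29 for dnTCF1Emut at 0 and 9 h, where 0% and 2.54% did. The difference from protein-coding peaks was 1.38 points (0.119 to 5.52) at dnTCF1EWT 0 h and 0.731 points (0.0858 to 1.84) at 9 h, and the intervals of the other lists included 0. The 2 members at 0 h were nearest to LINC00273 and, by a look after the values were seen, MIR663B, both in small-subunit rRNA repeats. The 5 members of the dnTCF1EWT 2 h list were nearest to MIR4287, MIR4686, MIR4711, MIR5197 and MIR4778, with scores of 692, 653, 183, 123 and 95.4, and the region near MIR4711, in intron 8 of FGGY, scored 183 at 2 h and 297 at 9 h with 3 WREs and 1 Helper site.

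Among peaks with a score above 200 the motif shares of the 3 lists were as follows. Of the 20 members of the dnTCF1EWT 2 h list with a score above 200, 11 (55.0%) held a WRE and 6 (30%) a Helper site, and for the 331 protein-coding peaks above 200 the shares were 53.5% and 23.6%, and for all 410 peaks 52.9% and 25.6%. Of the 10 members of the dnTCF1EWT 9 h list, 5 held a WRE and 5 a Helper site, against 51.9% and 24.5% of 106 protein-coding peaks and 50% and 30% of all 140 peaks. Of the 11 such members of the dnTCF1Emut 2 h list, 1 (9.09%), that near MIR1257, held a WRE, whereas 55.8% of 154 protein-coding and 53.8% of all 182 peaks did. The others were (TA)n repeats nearest to MIR302F, LINC00290, MIR5583-1, MIR708 and LINC00507 (the last 2 named after their values were seen) and the regions near RNU6-48, MIR9-2, MIR1203, MIR1279 and MIR595. These shares rest on 10 to 20 members per list.

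By kind of gene, WREs were in 47 of 252 peaks (18.7%) nearest to microRNA genes, 10 of 76 (13.2%) nearest to LINC genes, 3 of 15 nearest to snRNA genes and 4 of 14 nearest to snoRNA genes in the dnTCF1EWT 2 h list. The Wilson intervals of the first 2 were 14.3 to 23.9% and 7.31 to 22.6%, and the difference was not tested. At 9 h the shares were 7.33% of 546 microRNA and 7.69% of 143 LINC peaks.

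**Figure D4:**
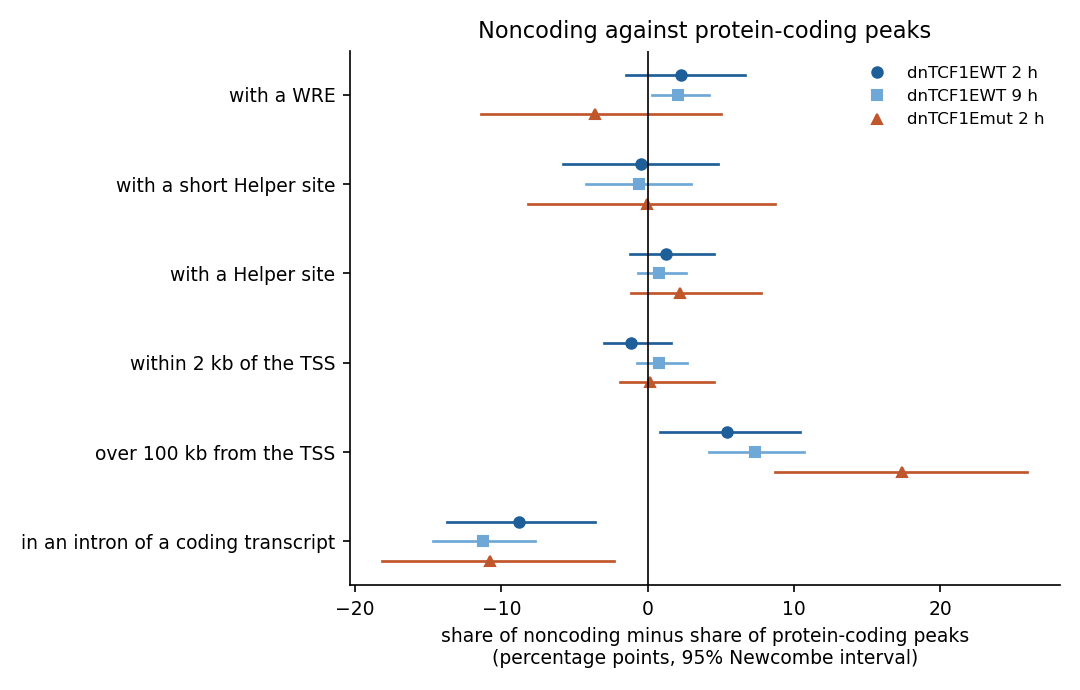
Difference between noncoding and protein-coding peaks in the share with each feature (percentage points, noncoding minus protein-coding, with 95% Newcombe intervals) in the dnTCF1EWT 2 h, dnTCF1EWT 9 h and dnTCF1Emut 2 h lists. The motif differences lie near 0, the share over 100 kb from the TSS is higher by 5.42, 7.34 and 17.4 points, and the share in introns of coding transcripts is lower by 8.81 (-8.81), 11.3 (-11.3) and 10.8 (-10.8) points.

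Members lay farther from the nearest TSS than protein-coding peaks in the 3 lists compared, and the size of the difference depended on the peaks used. More than 100 kb from the nearest TSS were 108 members (29.4%) of the dnTCF1EWT 2 h list, where 25.0% of all and 24.0% of protein-coding peaks were, 219 (28.1%) at 9 h, where 22.5% and 20.8% were, and 70 (51.5%) of the dnTCF1Emut 2 h list, where 36.3% and 34.1% were. The differences from protein-coding peaks were 5.42 (0.81 to 10.4), 7.34 (4.20 to 10.7) and 17.4 points (8.70 to 26.0). In untreated dnTCF1Emut cells 32 of 48 members (66.7%) lay that far away, where 39.8% of all peaks did, a difference from protein-coding peaks of 29.98 points (15.3 to 42.3). The counts were 43 of 122 (35.2%) for dnTCF1EWT at 0 h, where 30.4% of all peaks did, and 14 of 29 (48.3%) for dnTCF1Emut at 9 h, where 39.5% did, and there the intervals included 0. The median distance of members and protein-coding peaks was 44.3 and 36.7 kb for dnTCF1EWT at 2 h, 36.9 and 30.4 kb at 9 h, and 102 and 54.3 kb for dnTCF1Emut at 2 h. Without the peaks below 15% GC, the dnTCF1Emut 2 h medians were 78.9 and 52.6 kb, and 43.6% of 101 members and 32.99% of 1173 protein-coding peaks lay over 100 kb away, a difference of 10.6 points (0.916 to 20.7) in place of 17.4. Among the dnTCF1Emut 2 h peaks of 40 to 50% GC it was -5.20 points (-16.97 to 10.6), with 10 of 40 members that far away.

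**Figure D5:**
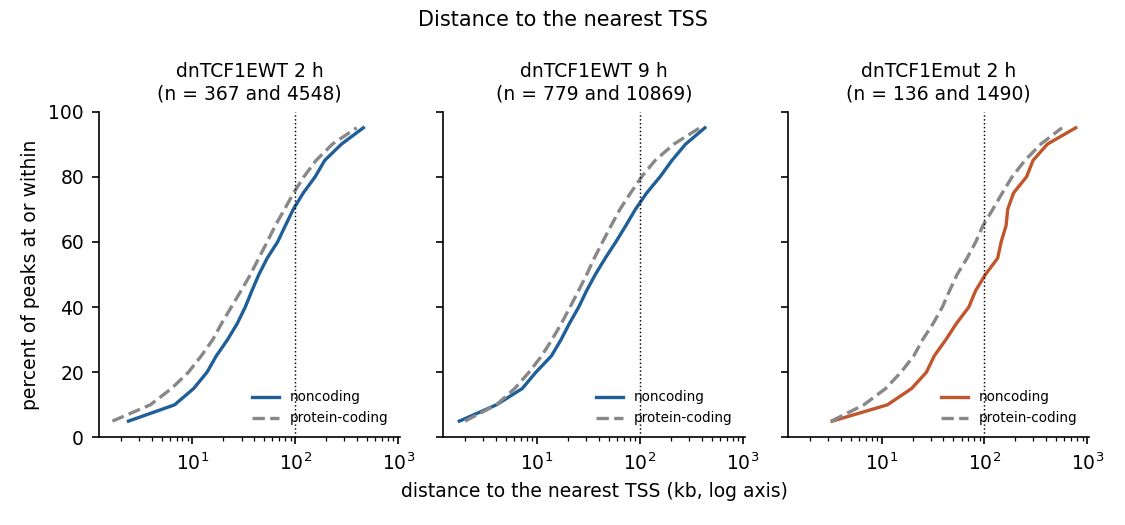
Percentiles of the distance from the peak center to the nearest TSS (kb, log axis) for noncoding (solid) and protein-coding (dashed) peaks in 3 lists. The noncoding curves lie to the right of the protein-coding ones over most of their range, by the most in the dnTCF1Emut 2 h list, where the medians are 102 and 54.3 kb.

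By position, 835 members were intergenic, 492 lay in an intron of a coding transcript, 103 in an intron of a noncoding transcript, 29 in a promoter as HOMER defines it and 22 in an exon, UTR or transcript end. Introns of coding transcripts held 126 members (34.3%) of the dnTCF1EWT 2 h list, where 39.2% of all peaks were in one, 268 (34.4%) at 9 h, where 41.9% were, and 39 (28.7%) of the dnTCF1Emut 2 h list, where 35.2% were. Relative to protein-coding peaks these were differences of -8.81 (-13.7 to -3.61), -11.3 (-14.7 to -7.74) and -10.8 points (-18.2 to -2.32). The shares were 41 of 122 (33.6%), 11 of 48 (22.9%) and 7 of 29 (24.1%) in the dnTCF1EWT 0 h, dnTCF1Emut 0 h and dnTCF1Emut 9 h lists, where 40.3%, 28.7% and 27.4% of all peaks were in one. Of the 492 peaks, 484 could be matched to a RefSeq transcript, in 275 host genes. SLC39A11 held the most, 9 peaks nearest to LINC00511, followed by CPNE4 with 7 nearest to MIR5704 and CNTNAP2 with 7 nearest to 3 MIR548 genes. These 3 hosts were chosen after their counts were seen.

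Few members lay at a TSS. Within 2 kb were 17 members (4.63%) of the dnTCF1EWT 2 h list, where 5.96% of all peaks were, 45 (5.78%) at 9 h, where 5.15% were, and 4 (2.94%) of the dnTCF1Emut 2 h list, where 2.66% were. The differences from protein-coding peaks were -1.13 (-2.99 to 1.61), 0.75 (-0.74 to 2.66) and 0.12 points (-1.91 to 4.56). In untreated dnTCF1EWT cells it was 8 of 122 (6.56%), where 2.83% of all and 2.43% of protein-coding peaks were, a difference of 4.13 points (0.81 to 10.02). For dnTCF1Emut it was 2 of 48 at 0 h (2.40% of all peaks) and 0 of 29 at 9 h (2.26% of all; Wilson upper limit 11.7%). Among the 8 peaks of untreated dnTCF1EWT cells were 1 near LINC00273, in a small-subunit rRNA repeat, and peaks near MIR3687 and MIR3648. MIR3648 was named after its values were seen. Those near MIR3687 and MIR3648 lay close together on chromosome 21, between 9825435 and 9827675. The part of these peaks in the difference was not tested.

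Near microRNA starts, MIR10A, which lies in the HOXB cluster, had a dnTCF1Emut 2 h peak centered 595 bp before the hairpin start (chromosome 17, 46657724 to 46658084; score 133, 1 WRE and 1 Helper site) and a dnTCF1EWT 9 h peak 382 bp before it (46657595 to 46657788; score 79.5, 1 short Helper site and no WRE). MIR100, processed from MIR100HG together with relatives of let-7 and miR-125, had a dnTCF1EWT 2 h peak 1520 bp downstream (chromosome 11, 122021311 to 122021682; score 170, 1 WRE). MIR128-1, whose hairpin lies in R3HDM1, had a dnTCF1Emut 2 h peak in intron 18 of R3HDM1, 1965 bp before the hairpin, with a score of 198 and none of the 3 motifs. MIR7-3HG had a peak 583 bp from its TSS that scored 172 and 103 with dnTCF1EWT at 2 h and 9 h, and an overlapping peak that scored 89.8 in untreated dnTCF1Emut cells. LINC00460 had a dnTCF1EWT 9 h peak 851 bp upstream of its TSS, with a score of 99.6 and 5 short Helper sites. Another of its regions, 280 kb away, scored 261 with dnTCF1EWT and 170 with dnTCF1Emut at 2 h. Further dnTCF1EWT peaks lay 28.2 kb (116 at 9 h) and 26.1 kb away (98.9 at 2 h). Further dnTCF1Emut 2 h peaks lay 134 and 232 kb away, with scores of 81.9 and 57.4. In the SNAR-A repeat genes of chromosome 19, SNAR-A11, SNAR-A9 and SNAR-A7 had dnTCF1EWT 9 h peaks of 106, 98.3 and 83.3. These genes are near-identical copies, so the peaks may share reads.

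MIR17HG, which encodes the miR-17-92 cluster of growth-promoting microRNAs, had a dnTCF1EWT 2 h peak centered 76 bp before the TSS (chromosome 13, 91999920 to 92000076 in hg19) and was singled out after its values were seen. Its score of 66.97 was rank 1804 of the list, and the 157-bp peak had 76.4% GC, 10 short Helper sites, 7 Helper sites and no WRE. The RefSeq promoter of MIR17HG (GRCh38.p14, chr13:91347437-91347736, plus strand, 250 bp before to 50 bp after the start) is shown because it is rich in Helper sites, with Helper sites on either strand in capitals.
MIR17HG promoter: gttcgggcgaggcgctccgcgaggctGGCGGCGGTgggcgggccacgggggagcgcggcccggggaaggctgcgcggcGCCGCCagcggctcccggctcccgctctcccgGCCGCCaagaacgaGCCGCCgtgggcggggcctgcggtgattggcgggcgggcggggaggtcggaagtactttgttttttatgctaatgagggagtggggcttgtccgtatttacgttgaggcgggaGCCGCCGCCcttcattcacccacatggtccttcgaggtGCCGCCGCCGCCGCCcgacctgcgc
The 300 bases hold 11 Helper sites, 9 of them on the printed strand, 18 short Helper sites and no WRE, at 73.0% GC. Of the 35116 RefSeq promoters of this length, 41.6% contained a Helper site, 0.265% contained 11 or more, 78.3% a short Helper site and 6.62% a WRE, both strands being searched. The cut of 11 is the count of MIR17HG itself, a promoter picked after its values were seen, so 0.265% is no test. Among the 78 promoters of member genes, 13 (16.7%) contained a Helper site, 60.3% a short one and 6.41% a WRE. MIR17HG is thus not typical of the member genes. The builds of the peak and the promoter differ, so the peak was not placed on these bases, and its Helper sites cannot be matched with those printed.

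Counted by gene, 425 of the 686 noncoding genes had peaks in 1 list, and 27 (3.94%) in 4 or more lists, where 296 of 8862 protein-coding genes (3.34%) had them. LINC00290 was the gene with peaks in all 6 lists, 19 peaks in 17 regions from 33.6 to 1417 kb away and from 1.91 to 60.3% GC, so that its recurrence did not come from 1 region. MIR4500, MIR4465, MIR5583-1, MIR4789 and LINC00161 had peaks in 5 lists. Over all 6 lists the mean number of peaks per gene was 2.16 for noncoding and 2.17 for protein-coding genes, and the highest 19 and 37. The number of peaks per gene depends on the size of the gene-free interval around it, which was not taken into account. In the induced lists, RNU5F-1, a U5 snRNA gene, had the most peaks, 16 in 9 regions. They lay 66.3 to 238 kb from the gene on chromosome 1, 5 in each dnTCF1EWT induced list and 6 in the dnTCF1Emut 2 h list, and none in an untreated list. Of these regions, 4 were listed for both proteins at 2 h, with scores of 239, 135, 112 and 102 for dnTCF1EWT and 115, 76.2, 97.5 and 57.9 for dnTCF1Emut. LINC00290 had 15 peaks in the induced lists, LINC00578 11, and MIR302F and MIR1226 9 each. Of the MIR1226 peaks, 8 were in the dnTCF1EWT 9 h list. The region in the first intron of LINC00578 scored 138 and 80.1 for dnTCF1EWT at 2 h and 9 h and 141 for dnTCF1Emut at 2 h.

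Between times, 64 members of the dnTCF1EWT 2 h list (17.4%) overlapped a 9 h peak, against 14.9% of all peaks and 14.4% of protein-coding ones. The score was higher at 2 h for 35 of the 64 (54.7%), against 66.1% of 833 such peaks of all genes, and the median log2 ratio of the scores at 2 h to 9 h was 0.06 (95% interval of the median -0.07 to 0.36), while for 653 protein-coding peaks it was 0.37 (0.26 to 0.48). Since the libraries are not scaled to each other, this ratio gives no change in binding. In the dnTCF1Emut line, 14 of the 29 members at 9 h (48.3%) overlapped a 2 h peak, against 65.8% of all peaks and 72.1% of protein-coding ones, a difference from the latter of -23.8 points (-41.5 to -5.65). Peaks of untreated cells of the same line overlapped 3 members of the dnTCF1EWT 2 h list (0.817%), against 1.40% of all peaks.

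The leading members of untreated dnTCF1EWT cells lay in repeated sequence. LINC00273 scored 214 (rank 1) at 0 h at a peak within a small-subunit rRNA repeat on chromosome 16 (33962995 to 33964169), and 128 at 9 h. SNORD119 scored 203 (rank 2) in an LTR element, and MIR3687, which lies in ribosomal DNA sequence, scored 183 (rank 3) at 0 h and 225 at 9 h. The dnTCF1Emut 9 h peaks nearest to LINC00273 were other regions, in alpha satellite repeats, with scores of 122, 85.9 and 56.2. Reads from such repeats can map to several places, and the part of mapping in these peaks was not tested.

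Of 79 well-known noncoding RNA genes on a list, 25 were nearest to a member peak and 14 to one with a score above 67. Another 7 were nearest only to peaks that are not members by the rule, which leaves out several symbols on the list. The matching share among other noncoding RNA genes was not computed, so these counts do not set the well-known genes apart. Besides the genes above, MIR135A2, from which the microRNA miR-135a that targets APC mRNA is made, had a dnTCF1EWT 2 h peak of 247 with 2 Helper sites at a distance of 193 kb. MIR29B1 had peaks of 142 and 135 with dnTCF1EWT at 2 h and 9 h, 16.99 and 17.2 kb from the hairpin, and MIR145, of the miR-143 and miR-145 pair of smooth muscle microRNAs, had a 2 h peak of 132. LINC00520 had peaks of 109 and 88.3, 7.398 and 7.366 kb upstream, each with 1 WRE. These regions of the 4 genes had no overlapping peak in a dnTCF1Emut list or in untreated cells. Most peaks of the dnTCF1EWT 2 h list had none either. Of all its peaks, 9.44% overlapped a dnTCF1Emut 2 h peak and 1.40% a peak of untreated dnTCF1EWT cells.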

How the data were processed

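ChIP-seq peak lists of dnTCF1EWT and dnTCF1Emut at 0, 2 and 9 h were analysed, and the input libraries and reads were not used. Per the labels, the authors used CASAVA 1.8.2, Bowtie2 2.0.0, MACS 1.3 and HOMER 3.16 with hg19. Duplicates had been pooled before peaks were called. The deposited peak score is the MACS score. The deposited GC content is a fraction of the peak sequence, given here in percent. Distance is the deposited number of bases between the middle of a peak and the closest TSS, and the deposited motif numbers are other values, matches within the peak counted with HOMER. Read depth is not in the lists and is unknown, and the input of the dnTCF1Emut line is labelled as sequenced deeper than the other libraries.

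The gene type ncRNA occurred in no list, where such genes carry the type miscRNA. Those with other symbols (32 to 882 peaks per list) were not members and were counted in an added alternative. The members and gene lists were chosen with earlier results of these data known. Genes were named if they led a list (6 members of each 2 h list, 4 of dnTCF1EWT 9 h, 2 of the others), had the most peaks in induced lists (5 genes), had peaks in at least 4 lists, lay within 2 kb of a TSS with a score above 67, held a WRE and a Helper site at dnTCF1EWT 2 h with a score above 67, or were on a list of 79 well-known genes with a score above 67, with at most 12 per group. Exceptions are marked.

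Shares have 95% Wilson intervals, differences of shares Newcombe intervals and medians exact order-statistic intervals. No p-value was computed, because each condition is 1 list. Peaks overlapping by any base were called shared. Alternatives changed the peaks used, the membership rule and the overlap. The interval and overlap functions were tested on simulated data. The software was matplotlib 3.10.9, SciPy 1.17.1, pandas 2.3.3 and NumPy 2.4.6 under Python 3.11.15.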

Additional observations from a re-analysis of the deposited data

How the results depend on the processing

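Only some results were recomputed under alternatives. They were the share of each list nearest to noncoding RNA genes and the differences in WRE, Helper site and distance shares. The differences were varied in the dnTCF1EWT 2 h, dnTCF1EWT 9 h and dnTCF1Emut 2 h lists. Counts of AT-rich members, of regions listed for both proteins and of dnTCF1EWT 2 h regions listed again at 9 h were also varied. Up to 12 alternatives per result gave 208 values. Of these, 177 stayed within the counting interval of the reported value, or within 1.5 times of a reported count. Some of the 177 could not differ, because the alternative removed no peak. Examples are the top 1000 peaks of the dnTCF1Emut lists of 708 and 354 peaks. Leaving out peaks below 15% GC likewise removed none from the dnTCF1EWT 0 h and 9 h lists. The count is therefore no measure of robustness. Other results, such as coding-intron shares, median scores and score ratios, were not varied. No paired analysis was possible because each condition is 1 pooled list with no separate replicates.

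The share of the list nearest to noncoding RNA genes depends on the membership rule. By gene type alone it was 0.577%, 0.627% and 0.631% for dnTCF1EWT at 0, 2 and 9 h and 0.565%, 0.850% and 0.565% for dnTCF1Emut, since microRNA and LINC genes then drop out. With the other miscRNA genes included it was 14.9%, 14.7% and 12.8%, and 14.97%, 16.6% and 17.2%. It was 8.56% above a score of 67 for dnTCF1EWT at 0 h and 7.90% among the top 1000 peaks at 9 h.

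For the WRE, the difference from protein-coding peaks was 6.97 points (dnTCF1EWT 2 h) and 4.22 points (9 h) among peaks of 40 to 50% GC, 6.35 points above a score of 67 (9 h), and 7.16, 7.37 and 19.5 points (dnTCF1Emut 2 h) by gene type alone. For the Helper site at dnTCF1EWT 2 h it was -1.61 points among the top 1000 peaks and -2.34 above a score of 67, and by gene type alone 4.04 (9 h) and 20.6 points (dnTCF1Emut 2 h). Within 2 kb of the TSS it was -6.77 points among the top 1000 and -5.60 above a score of 67 at dnTCF1EWT 2 h, and -0.796 among the top 1000 and 7.17 by gene type alone at 9 h. Over 100 kb from the TSS, a comparison added after the data were seen, it was 2.44 points among the top 1000 and 11.01 with other miscRNA genes at dnTCF1EWT 9 h, and for dnTCF1Emut 2 h it reversed to -5.20 points (-16.97 to 10.6) among peaks of 40 to 50% GC, which left 40 members. It was above 0 in all 12 alternatives for each dnTCF1EWT list and in 11 for dnTCF1Emut 2 h, but its interval excluded 0 in 6, 10 and 10 of 12 for dnTCF1EWT 2 h, 9 h and dnTCF1Emut 2 h. At dnTCF1EWT 2 h it included 0 for the top 1000 peaks (-6.22 to 15.02), a score above 67 (-5.46 to 10.1), 40 to 50% GC, intergenic peaks, gene type alone and microRNA genes only. For the WRE the interval excluded 0 in 2, 8 and 0 of 12. The causes of these shifts were not tested. Membership by gene type alone left 16 members of the dnTCF1Emut 2 h list, so its values have wide intervals, and the lists of 48 and 29 members limit every share of dnTCF1Emut at 0 and 9 h.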
